A study of Mus musculus with 2 samples.

Results

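The cells described here are labelled capillary and venous endothelium of the newborn mouse kidney. They were taken as Plvap-positive cells from 2 single-cell RNA sequencing libraries, and the label need not hold for every cell. A barcode counted as a cell with at least 3000 unique molecular identifiers (UMIs), at least 500 genes detected and at most 20% mitochondrial UMIs. A cell belonged to the Plvap endothelium when it held at least 1 UMI of Pecam1, at least 1 of Cdh5 and at least 2 of Plvap. It also had to hold no UMI of Gja5, Epcam or C1qa and at most 2 of Col3a1. These raw UMIs chose the cells, so the levels of those 7 genes are given as a description without a test. The rule found 876 cells among 9735. They were 447 of 5529 cells in replicate 1, or 8.08% (95% exact binomial interval 7.38 to 8.83%), and 429 of 4206 cells in replicate 2, or 10.2% (9.30 to 11.2%). The mean share was 9.14% ± 1.5 (SD, n = 2).

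Both libraries came from kidney at postnatal day 0 (P0) and carried the same genotype label, Rbpj c/+ ; Foxd1cre/+. They formed 1 group, numbered here in the order of deposit. Every cell therefore came from an animal with that label, and no library without these alleles was analysed here. Rbpj encodes the DNA-binding partner of the Notch receptors, and Foxd1 drives the Cre in stromal progenitors of the kidney. The labels do not say whether a library was 1 animal or a pool, so p-values cover these libraries only. They rest on the spread between libraries that is left once a shift shared by all classes is removed. That spread was estimated over all 10 gated cell classes, most of them not endothelial.

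PLVAP is the protein that forms the diaphragms across the openings of fenestrated capillaries and the necks of endothelial caveolae. In the kidney it marks the capillaries around the tubules, the ascending vasa recta and veins. Arteries, descending vasa recta and mature glomerular capillaries largely lack it. Its sieve lets water and small solutes pass between blood and the space around the tubules while holding back larger proteins.

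The identity of the cells rested on the genes of the rule and on 28 further endothelial genes. Plvap lies on chr8:71497765-71511752, minus strand, in the GENCODE M21 annotation of GRCm38. Its UMIs per cell ran from 2 to 104 in both libraries, with medians of 9 in replicate 1 and 14 in replicate 2, and its summed level was 652 and 976 counts-per-million (CPM). Pecam1, an adhesion molecule of endothelial junctions, had medians of 8 and 10 UMIs and summed levels of 659 and 768 CPM. Cdh5, the cadherin of those junctions, had medians of 8 and 9 UMIs and 669 and 704 CPM. All 3 summed levels were higher in replicate 2, and that of Plvap by the most.

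Near the limits of the rule the cells were few. With Plvap at exactly 2 UMIs there were 33 and 25 cells in the 2 libraries, and 50 and 19 cells met the rest of the rule with 1 Plvap UMI. The 28 endothelial genes summed to 9956 and 10759 CPM in the cells just inside this limit and to 10013 and 10973 CPM just outside. Cells that met all else but had 1 Gja5 UMI numbered 8 and 7, and those with 1 Epcam UMI numbered 37 and 52. No cell that met all else had 3 Col3a1 UMIs. With 1 C1qa UMI there were 3 and 1 cells, with 0 Pecam1 there were 6 and 2, and with 0 Cdh5 there were 2 and 6.

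The libraries held 200331687 and 173166168 UMIs over all barcodes. Cells of the Plvap endothelium held 3134 to 115068 UMIs in replicate 1, with a median of 11983, and 3360 to 167005 in replicate 2, with a median of 13500. Their counts summed to 7782276 and 8383711 UMIs. The libraries shared 6 cell barcodes. Scrublet, a caller of doublets (droplets holding 2 cells), marked 9 and 3 of the cells. As a comparison, Plvap-low endothelium was defined by the same rule with at most 1 Plvap UMI and no limit on Gja5. It held 157 and 66 cells with medians of 7299 and 9407.5 UMIs and sums of 1633227 and 824941. A further 8 kinds of non-endothelial cells, from nephron progenitors to macrophages, were gated by raw UMIs of their own markers. All 8 also had to hold no UMI of Pecam1 or Cdh5.

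Against the mean of the 8 non-endothelial classes, all 28 genes of the endothelial core list were higher in the Plvap endothelium, with a median log2 difference of 7.81. Over all 17776 genes tested, 44.9% passed, 26.1% higher and 18.8% lower, and their median lay near 0. The count is read as a check of the label, since cells gated on Pecam1 and Cdh5 were bound to hold other endothelial genes. The gates of the non-endothelial classes barred both genes, which also lowered endothelial transcripts on that side. Robo4, a guidance receptor that keeps vessels from leaking, stood at 124 and 129 CPM, and the highest non-endothelial class of each library reached 0.615 and 1.02 CPM. Flt1, a VEGF receptor that also acts as a decoy, stood at 839 and 945 CPM against at most 2.77 and 4.76 CPM. Gpihbp1, which carries lipoprotein lipase to the capillary surface, stood at 471 and 469 CPM against at most 0.761 and 1.30 CPM. In each of these genes both libraries of the Plvap endothelium lay far above every non-endothelial class.

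The other genes with the highest differences in that comparison were Fam167b, Ccm2l, Myct1, Dipk2b, Ptprb, Gimap4 and Aplnr. Ccm2l, a partner of the cerebral cavernous malformation proteins, had 56.3 and 61.2 CPM, and no non-endothelial class exceeded 0.543 and 0.652 CPM. Myct1, an endothelial membrane protein, had 161 and 203 CPM against at most 2.77 and 1.96 CPM. Gimap4, a small GTPase also known from lymphocytes, had 585 and 508 CPM against at most 2.07 and 2.38 CPM. Of these genes, Robo4, Flt1, Gpihbp1, Gimap4, Ccm2l, Myct1 and Dipk2b did not pass the test between Plvap and Plvap-low endothelium.

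**Figure D1:**
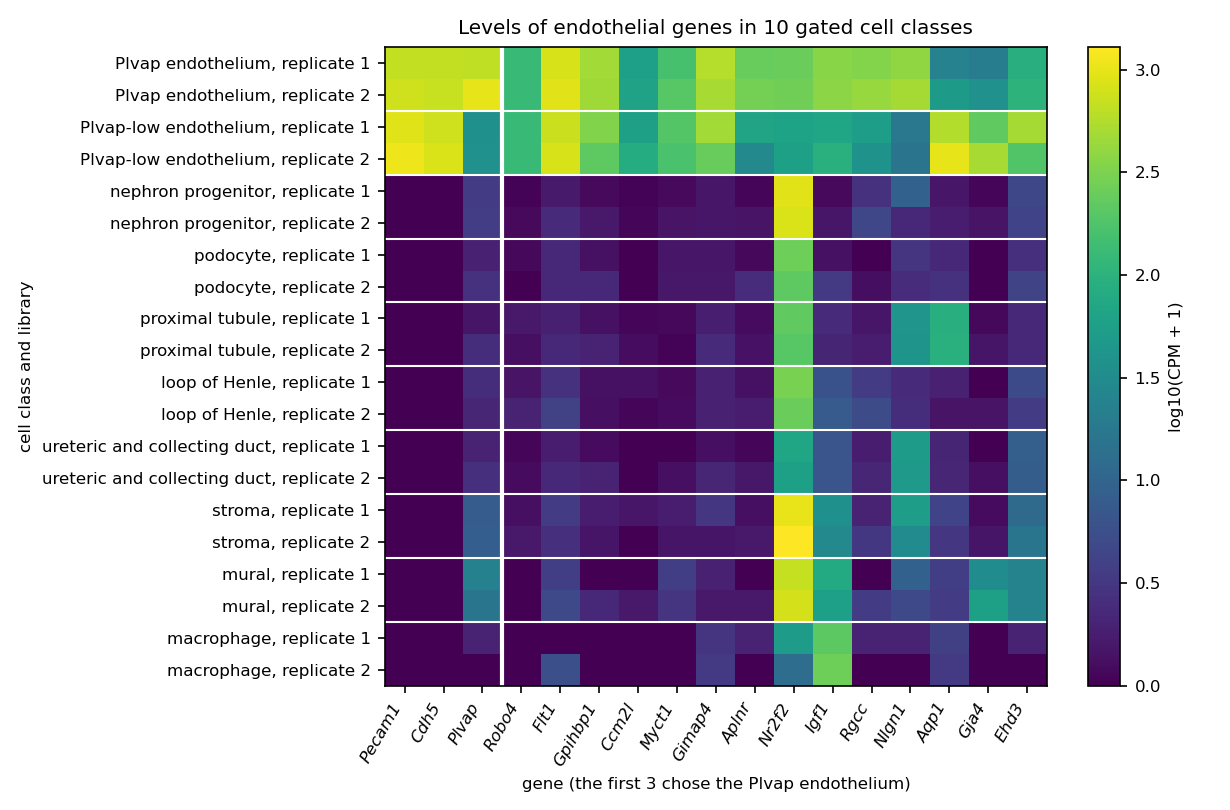
Levels of 17 genes, as log10(CPM + 1), in 10 gated cell classes, with a row for each library. Pecam1, Cdh5 and Plvap chose the cells. Robo4, Flt1, Gpihbp1, Ccm2l, Myct1 and Gimap4 are bright in both endothelial classes only, Aplnr, Rgcc and Nlgn1 are brightest in the Plvap endothelium, and Nr2f2 is brighter in stroma than in the Plvap endothelium.

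The bases upstream of 4 genes are shown because these genes were high in the Plvap endothelium and near 0 in non-endothelial cells, apart from Eng, and because all 4 hold the hexamer AGGAAG or its reverse complement CTTCCT, a form of the core bound by ETS factors such as ERG and FLI1. Capitals mark these hexamers and any AGGTCA or TGACCT, a half-site of nuclear receptors. Each run is the 250 bases before the RefSeq start site, 5′ to 3′ on the gene's strand.
Flt1 upstream, GRCm38.p6 chr5:147726012-147726261, - strand: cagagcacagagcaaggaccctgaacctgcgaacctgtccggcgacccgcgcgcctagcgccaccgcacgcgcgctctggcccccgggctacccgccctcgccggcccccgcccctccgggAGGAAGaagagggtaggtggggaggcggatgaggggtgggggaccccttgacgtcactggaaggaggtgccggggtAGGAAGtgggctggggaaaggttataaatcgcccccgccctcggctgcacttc
Eng upstream, GRCm38.p6 chr2:32646345-32646594, + strand: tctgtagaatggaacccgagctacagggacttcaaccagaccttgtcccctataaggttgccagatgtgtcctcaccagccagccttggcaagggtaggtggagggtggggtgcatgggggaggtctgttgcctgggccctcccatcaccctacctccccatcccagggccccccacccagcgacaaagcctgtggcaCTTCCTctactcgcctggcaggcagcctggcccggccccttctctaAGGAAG
Dipk2b upstream, GRCm38.p6 chrX:18461398-18461647, - strand: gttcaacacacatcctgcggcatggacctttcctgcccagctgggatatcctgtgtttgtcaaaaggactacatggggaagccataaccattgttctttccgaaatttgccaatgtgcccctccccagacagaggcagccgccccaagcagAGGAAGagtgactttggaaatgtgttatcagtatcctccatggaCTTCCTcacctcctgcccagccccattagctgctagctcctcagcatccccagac
Fam167b upstream, GRCm38.p6 chr4:129578581-129578830, - strand: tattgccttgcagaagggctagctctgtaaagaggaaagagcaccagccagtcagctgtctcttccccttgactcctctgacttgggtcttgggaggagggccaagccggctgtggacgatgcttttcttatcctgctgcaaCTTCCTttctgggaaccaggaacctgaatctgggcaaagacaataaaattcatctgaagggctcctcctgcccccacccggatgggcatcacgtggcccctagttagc

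Among the 28 endothelial core genes, 14 had an upstream sequence in the RefSeq table, and 9 of these 14 held AGGAAG on either strand within 250 bases. Over all 27018 genes with a sequence the share was 32.3%, and over all 32841 upstream sequences it was 29.5%. AGGTCA on either strand was in 4 of the 14, beside 15.8% of all genes. Genes with several start sites counted once if any of them held the letters. A match describes letters and shows no binding. Eng, a co-receptor of BMP ligands, had 280 and 362 CPM in the Plvap endothelium and at most 45.2 and 56.1 CPM outside endothelium, in mural cells of replicate 1 and stroma of replicate 2. Dipk2b, a secreted or membrane protein of the DIPK family, had 47.7 and 47.0 CPM and at most 0.181 and 0.349 CPM outside endothelium. Fam167b had 391 and 430 CPM and at most 0.973 and 0.899 CPM.

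Markers of other cell types were low. The 8 stromal markers summed to 13.1 and 16.8 CPM in the Plvap endothelium and to 4980 and 4603 CPM in stroma. All 8 were under 10 CPM in both libraries, Foxd1 among them at 2.57 and 0.596 CPM. Podocyte markers summed to 278 and 151 CPM, nephron progenitor markers to 185 and 242 CPM, mural markers to 50.5 and 82.8 CPM and macrophage markers to 32.4 and 17.2 CPM. Haemoglobin and other erythroid genes summed to 1272 and 4043 CPM in the Plvap endothelium, 3458 and 13709 CPM in Plvap-low endothelium, and 1664 and 16716 CPM in barcodes with 10 to 100 UMIs, which hold free RNA. The erythroid level was higher in replicate 2 in all 3 groups of barcodes.

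Between Plvap and Plvap-low endothelium, 1336 of 17776 genes passed an adjusted p of 0.05 in edgeR's quasi-likelihood test, 7.52% of those tested. Higher in the Plvap endothelium were 735 genes (4.13%) and lower were 601 (3.38%), with a median log2 difference of 0.06 over all genes. These shares are the background for the counts of every gene list below. In summed counts, fewer cells with a transcript and less of it per cell cannot be told apart. Scaling with DESeq2's size factors in the same test gave 520 higher and 725 lower. At an unadjusted p under 0.05 there were 3449 genes. Plvap itself split these cells and Gja5 was barred from 1 side, so a gene whose level follows either of them in endothelium had to differ to some extent. Genes of the gates were left out of the tests. Differences are in log2 CPM, Plvap minus Plvap-low endothelium, with the standard error of the fit over 2 libraries.

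The gene with the largest difference toward the Plvap endothelium was Nlgn1, a synaptic adhesion molecule also present in vessels, on chr3:25426215-26332460. It stood at 395 and 489 CPM in the Plvap endothelium and at 16.5 and 14.5 CPM in Plvap-low endothelium, a difference of 4.98 ± 0.48 (SE), with an edgeR adjusted p of 1.3e-05. Both libraries of one class lay above both of the other. Among non-endothelial cells the highest level was 54.5 CPM in replicate 1, in stroma, and 45.3 CPM in replicate 2, in ureteric and collecting duct cells.

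Hs6st3, an enzyme that sulphates heparan chains, had 389 and 283 CPM against 20.2 and 38.8 CPM, a difference of 3.72 ± 0.45. Slc24a3, a sodium, calcium and potassium exchanger, had 80.2 and 107 CPM against 8.57 and 6.06 CPM, a difference of 3.69 ± 0.52. Ptgs1, the constitutive cyclooxygenase, had 75.3 and 54.5 CPM against 6.12 and 6.06 CPM, a difference of 3.51 ± 0.31. In these 3 genes the endothelial classes did not overlap. Slc24a3 was higher still in stroma, at 111 and 141 CPM, and Ptgs1 in macrophages, at 133 and 140 CPM.

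Car8, an inactive relative of the carbonic anhydrases, had 97.9 and 75.9 CPM against 8.57 and 3.64 CPM. Il33, an alarmin cytokine held in nuclei, had 27.4 and 48.7 CPM against 3.67 and 1.21 CPM, and was highest in nephron progenitors at 162 and 95.6 CPM. Sirpa, the receptor of CD47, had 48.8 and 60.1 CPM against 8.57 and 0 CPM. Col13a1, a transmembrane collagen, had 32.6 and 60.5 CPM against 6.12 and 3.64 CPM, and 51.2 and 48.0 CPM in nephron progenitors. Sirpa was 420 and 471 CPM in macrophages, and its call was lost (adjusted p over 0.05) when 5% of each sum was subtracted as free RNA.

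On the other side stood genes nearly silent in the Plvap endothelium. Slc14a1, the urea transporter of descending vasa recta, gave 1 count among 16165987 UMIs of the Plvap endothelium and 202 counts among 2458168 UMIs of Plvap-low endothelium. The ratio was 1328-fold, with a 95% interval of 236 to 52727 that covers counting error only. Cntn1, a neural adhesion molecule, gave 6 counts against 106, a ratio of 116-fold (51.6 to 324). Aqp1, the water channel of descending vasa recta and proximal tubule, had 22.9 and 49.3 CPM against 563 and 994 CPM, a difference of -4.33 ± 0.26 (edgeR adjusted p = 1.9e-07). Both genes known from descending vasa recta, Slc14a1 and Aqp1, thus had most of their level on the Plvap-low side.

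Hpgd, which breaks down prostaglandins, had 4.75 and 6.32 CPM against 235 and 282 CPM, a difference of -5.43 ± 0.46. Bmx, a kinase of arterial endothelium, had 1.16 and 2.62 CPM against 75.9 and 132 CPM, a difference of -5.65 ± 0.42. Scin, an actin-severing protein, had 4.63 and 2.74 CPM against 135 and 133 CPM, a difference of -5.11 ± 0.39. Ptgs1 and Hpgd, a synthetic and a breakdown enzyme of prostaglandins, therefore passed the test in opposite directions.

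Ptchd1, Luzp2, Col8a1, the long non-coding RNA Mannr and the unnamed locus Gm9946 completed the 10 genes with the largest differences toward Plvap-low endothelium. Their levels in the Plvap endothelium ran from 0 to 7.28 CPM over both libraries, and in Plvap-low endothelium from 9.18 to 153 CPM. Col8a1 differed between the libraries of the Plvap-low class, 9.18 against 61.8 CPM, and its call was lost when 5% was subtracted as free RNA. The calls for Ptchd1 and Gm9946 were lost when Gja5 was held at 0 in both classes.

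**Figure D2:**
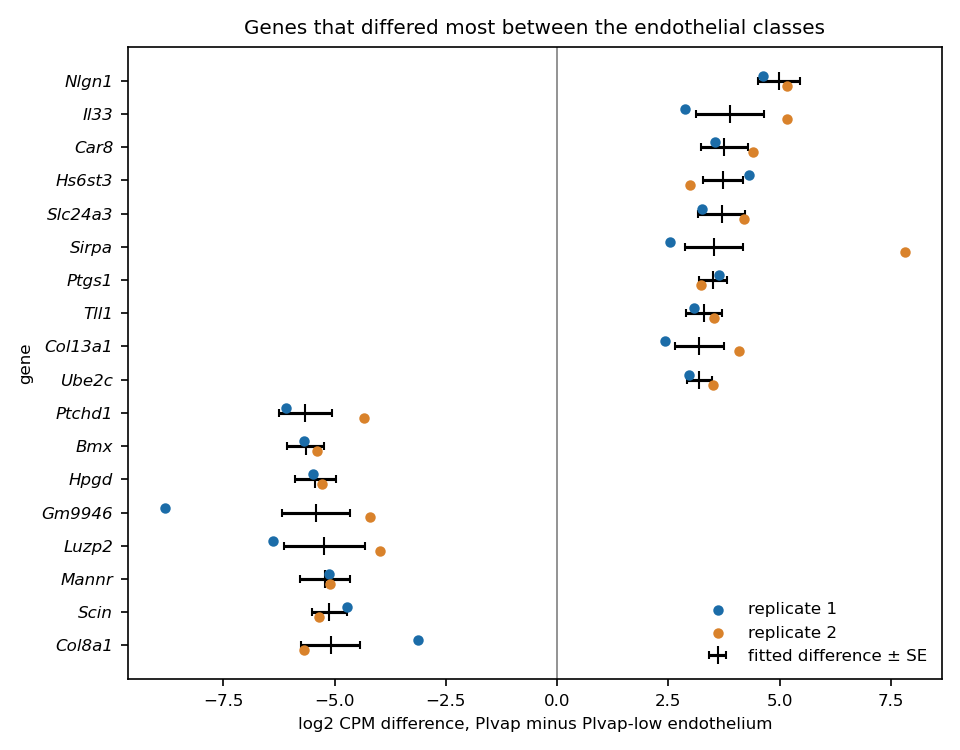
Difference in log2 CPM between Plvap and Plvap-low endothelium for 18 genes with the largest differences in either direction. Bars are the fitted difference ± SE over 2 libraries, and coloured points are each library. All points of the first 10 genes lie above 0 and all points of the other 8 lie below 0. Genes were chosen to have the same sign in both libraries, so this was fixed by the choice. Slc14a1 and Cntn1, with at most 6 counts in the Plvap endothelium, are left out.

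Venous genes were mostly higher. Of 10 listed, 8 were tested: 5 were higher, 1 was lower and 2 did not pass, with a median difference of 1.95, or 1.6 with Selp, which had no count in Plvap-low endothelium, set to its bound against a floor of 3 counts. Nr2f2 encodes COUP-TFII, the transcription factor that keeps venous identity, and lies on chr7:70351944-70366735. It stood at 251 and 271 CPM in the Plvap endothelium and at 63.1 and 58.2 CPM in Plvap-low endothelium, a difference of 2.20 ± 0.26 (edgeR adjusted p = 9.2e-05). Both libraries of the Plvap endothelium were higher. When each cell was thinned to 3000 UMIs, 44.3% and 48.7% of cells in the Plvap endothelium held an Nr2f2 UMI, 11.5% and 18.2% in Plvap-low endothelium, and 42.6% and 47.0% in podocytes. Nr2f2 was not confined to endothelium, since 89.7% and 94.5% of stromal cells held it at that depth. Without thinning the Plvap endothelium had 75.8% and 79.0%.

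Nrp2, a co-receptor of VEGF-C and semaphorins, had 164 and 193 CPM against 64.3 and 48.5 CPM, a difference of 1.69 ± 0.18. Ephb4, the venous receptor of ephrin-B2, had 137 and 150 CPM against 91.8 and 89.7 CPM, a difference of 0.74 ± 0.14 on the log2 scale, which did not pass after cells were thinned to 3000 UMIs. Flrt2, an adhesion protein, had 259 and 172 CPM against 60 and 37.6 CPM, and Tll1, a metalloprotease, had 51.0 and 41.3 CPM against 6.12 and 3.64 CPM. Tll1 was at most 0.556 and 0.652 CPM in the non-endothelial classes.

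Markers of mature veins and venules were nearly absent. Ackr1, the chemokine receptor of venules, gave 0 and 0.358 CPM, and the adhesion molecule Sele gave 0.514 and 0.596 CPM. Selp, P-selectin, gave 2.70 and 4.17 CPM and no count in Plvap-low endothelium, and did not pass (edgeR adjusted p = 0.063). Vwf, the clotting protein of larger vessels, was lower, at 5.53 and 5.61 CPM against 39.8 and 30.3 CPM. That call was lost with free RNA subtracted, with cells thinned or with cycling cells left out. The Vwf difference of -2.55 became 0.62 (edgeR adjusted p = 0.80) when Gja5 was held at 0 in both classes. Of the genes that speak to the venous part of the label, Nr2f2, Nrp2 and Ephb4 were thus higher, and the venule markers Ackr1, Sele and Selp were at or near 0.

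Genes of capillaries around the tubules divided. Of 12 listed for peritubular capillaries and vasa recta, 5 were higher, 2 were lower and 5 did not pass, with a median of 0.42. Aplnr, the apelin receptor, on chr2:85136225-85139923, stood at 242 and 289 CPM against 64.3 and 27.9 CPM, a difference of 2.48 ± 0.31 (edgeR adjusted p = 0.00013). It was at most 0.973 and 1.5 CPM outside endothelium. After thinning, 52.8% and 56.9% of cells in the Plvap endothelium held an Aplnr UMI, beside 17.8% and 10.6% in Plvap-low endothelium, and 0% (95% interval up to 1.15%) and 0.610% in podocytes.

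Rgcc, a regulator of the cell cycle that is high in many capillaries, had 337 and 429 CPM against 52.7 and 37.6 CPM, a difference of 3.07 ± 0.26 (edgeR adjusted p = 3.2e-06). Igf1, the growth factor, had 359 and 370 CPM against 66.1 and 92.1 CPM, a difference of 2.33 ± 0.24. In macrophages, the non-endothelial class with most Igf1, it was 211 and 262 CPM. Both genes separated the endothelial classes without overlap.

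Fabp4, a fatty acid carrier of capillary endothelium, was abundant in both classes, with 5646 and 6156 CPM against 3231 and 3313 CPM, a difference of 0.94 ± 0.26 (edgeR adjusted p = 0.036). Gas6, a ligand of TAM receptors, had 56.9 and 78.2 CPM against 29.4 and 35.2 CPM, a difference of 1.13 ± 0.30 (edgeR adjusted p = 0.029). Without the library block, with free RNA subtracted or with Gja5 at 0 in both classes neither of these 2 calls held. Fabp4 also failed under both DESeq2 settings, and Gas6 with cells thinned or matched in depth. Igfbp3, Esm1, Cd36, Car4 and Gpihbp1 did not pass, and the lower genes were Slc14a1 and Aqp1.

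Arterial genes were lower almost throughout. Of 18 listed, 17 were lower and none higher, with a median of -2.91, and only Unc5b did not pass. In both libraries all 18 had a negative difference, whereas 23.6% of all tested genes were negative in both. With Gja5 at 0 in both classes 12 of 18 were lower, and likewise 12 with free RNA subtracted. Gja4, the arterial connexin 37, had 19.1 and 36.9 CPM against 222 and 508 CPM, a difference of -3.57 ± 0.20 (edgeR adjusted p = 4.2e-07). Sox17, an arterial transcription factor, had 175 and 195 CPM against 527 and 899 CPM, a difference of -1.80 ± 0.15. Sox17 was thus still well expressed in the Plvap endothelium.

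Cxcl12, the chemokine of arterial and stromal cells, had 22.9 and 75.3 CPM against 479 and 1215 CPM. Vegfc, the lymphatic growth factor, had 22.1 and 28.5 CPM against 342 and 502 CPM. Fbln5, an elastic fibre protein, had 7.71 and 23.0 CPM against 200 and 413 CPM, a difference of -4.24 ± 0.24. Efnb2, the arterial partner of Ephb4, had 246 and 207 CPM against 531 and 439 CPM, a difference of -0.997 ± 0.21, and this call was lost without the library block and with Gja5 at 0 in both classes.

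Genes of glomerular endothelium were lower as well: 9 of 13 were lower, none was higher and 4 did not pass, with a median of -1.85. Ehd3, a membrane trafficking protein typical of glomerular capillaries, had 91.2 and 100.4 CPM against 491 and 185 CPM, a difference of -1.72 ± 0.30 (edgeR adjusted p = 0.0018). After thinning to 3000 UMIs, 14.3% and 18.6% of cells in the Plvap endothelium held an Ehd3 UMI, beside 29.9% and 18.2% in Plvap-low endothelium. In replicate 2 the shares of cells were thus alike. Plat, tissue plasminogen activator, had 67.7 and 58.4 CPM against 493 and 142 CPM, a difference of -2.24 ± 0.47. In both genes the Plvap-low class differed between its libraries by more than the Plvap endothelium did. Tbx3, a transcription factor, had 38.3 and 35.9 CPM against 165 and 104 CPM. The number lower fell to 5 with free RNA subtracted, and Plat, Tbx3 and Nostrin were among the lost calls.

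**Figure D3:**
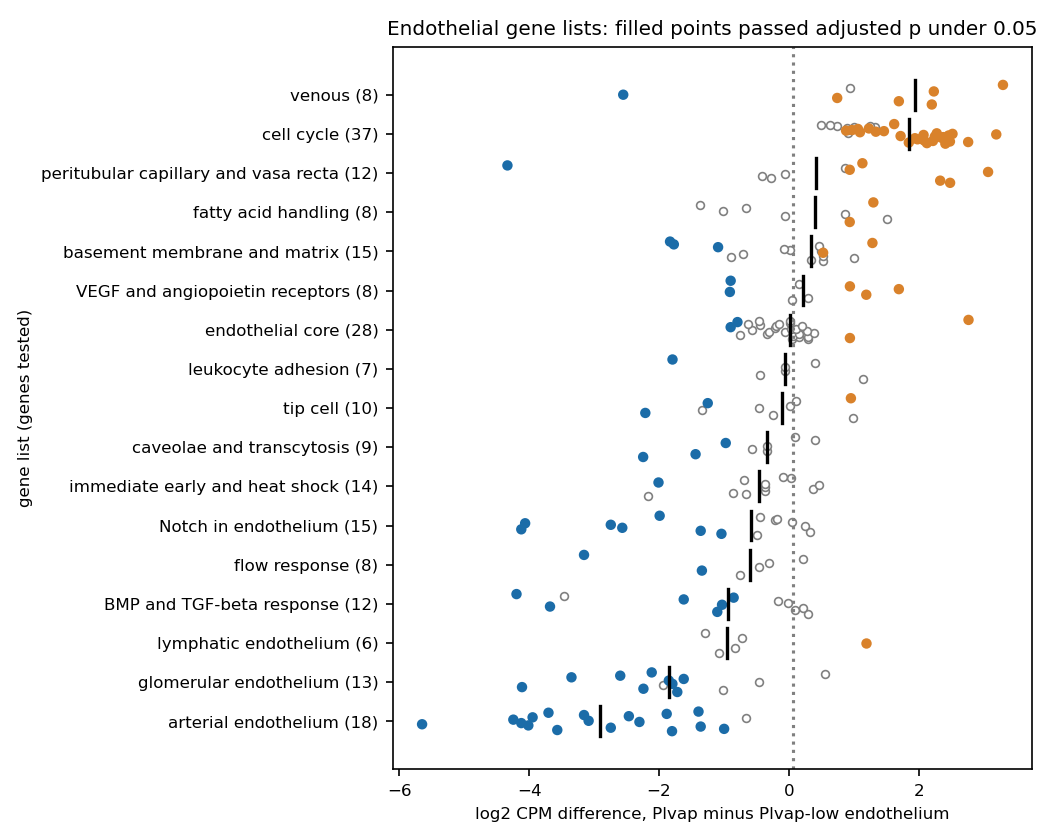
Difference in log2 CPM between Plvap and Plvap-low endothelium for the genes of 17 lists, each point being a gene. Filled points passed the edgeR test at adjusted p 0.05, bars are list medians over all genes tested, and the dotted line is the median of all genes at 0.06. Venous and cell cycle genes lie to the right, arterial and glomerular genes to the left. A further 12 points with at most 6 counts in a class are not drawn.

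Receptors of vessel growth factors were higher, lower or not called, by gene. Of 8 VEGF and angiopoietin receptors, 3 were higher, 2 were lower and 3 did not pass, with a median of 0.22. Flt4, the VEGF-C receptor, had 101 and 109 CPM against 50.2 and 46.1 CPM, a difference of 1.19 ± 0.28 (edgeR adjusted p = 0.018). Tek, the angiopoietin receptor TIE2, had 601 and 607 CPM against 316 and 360 CPM, a difference of 0.94 ± 0.26 (edgeR adjusted p = 0.040). Flt4 failed without the block, thinned or with Gja5 at 0, and Tek failed without the block, with free RNA subtracted and under both DESeq2 settings.

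Nrp1, a co-receptor of VEGF-A, had 598 and 435 CPM against 1087 and 970 CPM, a difference of -0.91 ± 0.18. Ptprb, the phosphatase that holds TIE2 in check, had 449 and 542 CPM against 783 and 1216 CPM, a difference of -0.90 ± 0.18 (edgeR adjusted p = 0.0069). Nrp1 failed against depth-matched cells, and Ptprb failed with free RNA subtracted or with Gja5 at 0. The neuropilins thus stood in opposite directions, Nrp2 higher and Nrp1 lower. Kdr, the main VEGF-A receptor, had 521 and 616 CPM against 653 and 532 CPM and did not pass. Its classes overlapped. Tie1, an orphan partner of TIE2, had 271 and 274 CPM against 267 and 256 CPM and did not pass.

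Lymphatic genes were low. Flt4 was the 1 gene of 6 tested that was higher, and lymphatic endothelium shares it with blood capillaries. Prox1, the master factor of lymphatic fate, stood at 2.57 and 2.39 CPM, Pdpn at 1.03 and 0.239 CPM and Lyve1 at 3.98 and 12.5 CPM.

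Notch genes, of interest because of the Rbpj allele, were lower or did not pass. Of 15 tested, 7 were lower, none was higher and 8 did not pass, with a median of -0.59. The list shares Dll4, Jag1 and Hey1 with the arterial list. The ligand Jag1 had 9.89 and 12.3 CPM against 167 and 253 CPM, a difference of -4.12 ± 0.53 (edgeR adjusted p = 0.00017). The ligand Jag2 had 17.2 and 21.0 CPM against 89.4 and 160 CPM, a difference of -2.57 ± 0.28. Dll4, the ligand of sprouting and arterial vessels, had 35.98 and 29.2 CPM against 91.8 and 86.1 CPM, a difference of -1.36 ± 0.24, lost with free RNA subtracted or Gja5 at 0.

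The endothelial receptor Notch4 had 63.0 and 66.8 CPM against 118 and 172 CPM, a difference of -1.04 ± 0.23, lost after thinning and with Gja5 at 0. Notch1 had 130 and 141 CPM against 186 and 222 CPM and did not pass. The target Hey1 had 11.2 and 8.11 CPM against 66.7 and 71.5 CPM, a difference of -2.74 ± 0.35, and Hey2 had 0.514 and 1.07 CPM against 7.96 and 24.2 CPM, lost with Gja5 at 0. The target Hes1 had 185 and 193 CPM against 189 and 156 CPM, which overlapped. Rbpj itself had 56.3 and 55.3 CPM against 83.9 and 52.1 CPM and did not pass. Reads from the 3′ end of a transcript do not check which part of a conditional allele is present.

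The seventh lower Notch gene was Dlk1, an imprinted ligand-like protein, whose level depended on the library. It had 128 and 12.9 CPM in the Plvap endothelium and 466 and 71.5 CPM in Plvap-low endothelium, with an edgeR adjusted p of 0.047 between the classes. Replicate 1 was higher in both classes, and the classes overlapped across libraries, since the Plvap endothelium of replicate 1 lay above the Plvap-low class of replicate 2.

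BMP signalling genes were lower or did not pass: 6 of 12 were lower, none was higher, and the median was -0.94. Acvrl1, the receptor ALK1, had 67.8 and 69.7 CPM against 130 and 193 CPM, a difference of -1.10 ± 0.19. Id1, a direct BMP target, had 259 and 210 CPM against 462 and 561 CPM, a difference of -1.03 ± 0.21. Tmem100, a target of ALK1, had 2.44 and 3.82 CPM against 51.4 and 77.6 CPM, a difference of -4.19 ± 0.51 (edgeR adjusted p = 0.00010). The inhibitory Smad6 and Smad7 and the ligand Bmp6 were the others. Eng, Bmpr2, Tgfbr2, Id2, Id3 and Bmper did not pass. The Acvrl1 call was lost with free RNA subtracted, and the Id1 call against depth-matched cells or with Gja5 at 0.

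Genes of caveolae, the flask-shaped pits on whose necks PLVAP sits, were not higher. Of 9, 3 were lower and 6 did not pass, with a median of -0.33, or -0.45 without Mfsd2a, which had no count. Cav1, the main caveolin, had 101 and 76.5 CPM against 405 and 474 CPM, a difference of -2.24 ± 0.41 (edgeR adjusted p = 0.0026). Cav2 had 36.4 and 32.1 CPM against 104 and 93.3 CPM, a difference of -1.44 ± 0.22, and Ehd2, which stabilises caveolar necks, had 104 and 107 CPM against 183 and 268 CPM. The coat proteins Cavin1, Cavin2 and Cavin3 did not pass. Mfsd2a is the lipid transporter that restrains transcytosis in brain vessels. The Ehd2 call was lost with free RNA subtracted and with Gja5 at 0.

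Of 15 basement membrane and matrix genes, 2 were higher, 3 were lower and 10 did not pass. Col15a1, a collagen of capillary basement membranes, had 248 and 245 CPM against 114 and 94.6 CPM, a difference of 1.29 ± 0.28, lost with free RNA subtracted or Gja5 at 0. Its relative Col18a1, the source of endostatin, had 93.9 and 117 CPM against 364 and 442 CPM, a difference of -1.83 ± 0.31 (edgeR adjusted p = 0.0016). These related collagens passed in opposite directions. Lamc1, a laminin chain, was the other higher gene at an edgeR adjusted p of 0.044, and 7 of 15 alternatives ended that call. Sparcl1 and Fn1 were the other lower genes, and 4 and 3 alternatives ended theirs. Col4a1, the most abundant, had 1731 and 1537 CPM and did not pass.

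Among 8 fatty acid genes, Fabp4 and Tcf15 were higher and 6 did not pass. Tcf15, a partner of Meox2 in capillary fatty acid uptake, had 129 and 203 CPM against 65.5 and 75.2 CPM, a difference of 1.30 ± 0.22, which failed in DESeq2's Wald test. Meox2 had 2.18 and 2.62 CPM. The related Meox1 entered the fixed lists as a nephron progenitor marker, but was also present here, with 59.6 and 99.6 CPM in the Plvap endothelium, 33.0 and 58.7 CPM in nephron progenitors and 26.9 and 24.2 CPM in Plvap-low endothelium. The difference between the endothelial classes was 1.61 ± 0.29 (edgeR adjusted p = 0.0026).

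A pair of further genes listed for other cell types were higher in the Plvap endothelium. Itga8, an integrin of stroma and nephron progenitors, had 96.6 and 115 CPM against 44.7 and 18.2 CPM, with 561 and 578 CPM in nephron progenitors. Abcc9, a potassium channel subunit of pericytes, had 32.9 and 53.9 CPM against 6.12 and 13.3 CPM, with 414 and 257 CPM in mural cells. Their lists as a whole had 2 of 5 and 1 of 6 tested genes higher. At least 3 UMIs of nephron progenitor markers were found in 3 and 3 cells of the Plvap endothelium. With endothelial cells that held at least 3 UMIs of epithelial markers left out, both calls held. The Itga8 call was lost with free RNA subtracted and between cells with at least 5 and with 0 Plvap UMIs, and the Abcc9 call with Gja5 at 0. The part of mural transcripts in the Abcc9 result was not tested.

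Leukocyte adhesion genes and genes that answer flow were mostly not called. Jam2, a junction molecule, was lower at 31.7 and 33.9 CPM against 109 and 138 CPM, and the other 6 tested adhesion genes did not pass. Klf4, induced by laminar flow, had 89.2 and 120 CPM against 232 and 343 CPM, a difference of -1.34 ± 0.27, and Edn1, endothelin, had 6.68 and 8.95 CPM against 69.8 and 80.0 CPM. The Klf4 call was lost with free RNA subtracted or cycling cells left out. Klf2 had 448 and 453 CPM against 731 and 890 CPM and did not pass. Of 10 tip cell genes, Trp53i11 was higher, Cxcr4 and Pdgfb were lower and 7 did not pass. Over all genes tested 4.13% were higher and 3.38% lower, and calls this few in short lists are not read as a result about the lists.

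Within the endothelial core list, 24 of 28 genes did not pass between the endothelial classes. Gpr182, an atypical chemokine receptor of sinusoidal and lymphatic vessels, had 65.5 and 91.1 CPM against 15.3 and 7.27 CPM, a difference of 2.77 ± 0.42 (edgeR adjusted p = 0.00062). Podocytes also held it, at 45.1 and 50.1 CPM. The other higher gene was Tek. The lower genes were Ptprb and Lmo2, a cofactor of blood and vessel development, whose call was lost in 5 of 15 alternatives.

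Cell cycle genes were the list with the most calls toward the Plvap endothelium. Of 37, 28 were higher, none was lower and 9 did not pass, with a median of 1.85. All 37 were higher in both libraries, whereas 36.3% of all tested genes were. Mki67, a marker of cycling cells, had 305 and 198 CPM against 73.5 and 24.2 CPM, a difference of 2.41 ± 0.23 (edgeR adjusted p = 1.5e-05). Macrophages held more Mki67 than the Plvap endothelium, at 385 and 307 CPM. Ube2c, a ubiquitin-conjugating enzyme of mitotic exit, had 138 and 103 CPM against 18.4 and 9.70 CPM, a difference of 3.19 ± 0.28. Mcm3, part of the replicative helicase, had 107 and 91.0 CPM against 56.9 and 36.4 CPM, a difference of 1.10 ± 0.24. Both classes were higher in replicate 1 for these 3 genes.

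The share of cells with a UMI of 20 mitotic genes was taken after thinning each cell to 3000 UMIs. It was 58.4% (95% exact interval 53.7 to 63.0%) and 46.4% (41.6 to 51.2%) in the Plvap endothelium. In Plvap-low endothelium it was 33.1% (25.8 to 41.1%) and 24.2% (14.5 to 36.4%). Stroma had 46.2% and 39.6%, nephron progenitors 46.2% and 40.6%, and podocytes, which leave the cell cycle as they mature, 14.4% and 15.2% at median depths of 8974 and 13549 UMIs. Macrophages and the other gated classes were not scored in this way. Without thinning the Plvap endothelium had 79.9% and 76.9%. In both libraries the interval of the Plvap endothelium lay above that of Plvap-low endothelium, though 2 libraries allow no p under 0.05 in an exact permutation test of such shares. The intervals cover counting error only. Raw Plvap UMIs split the classes, at median depths of 11983 and 13500 against 7299 and 9407.5 UMIs, and thinning came after that split. The part of depth at the split in these shares was not tested.

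**Figure D4:**
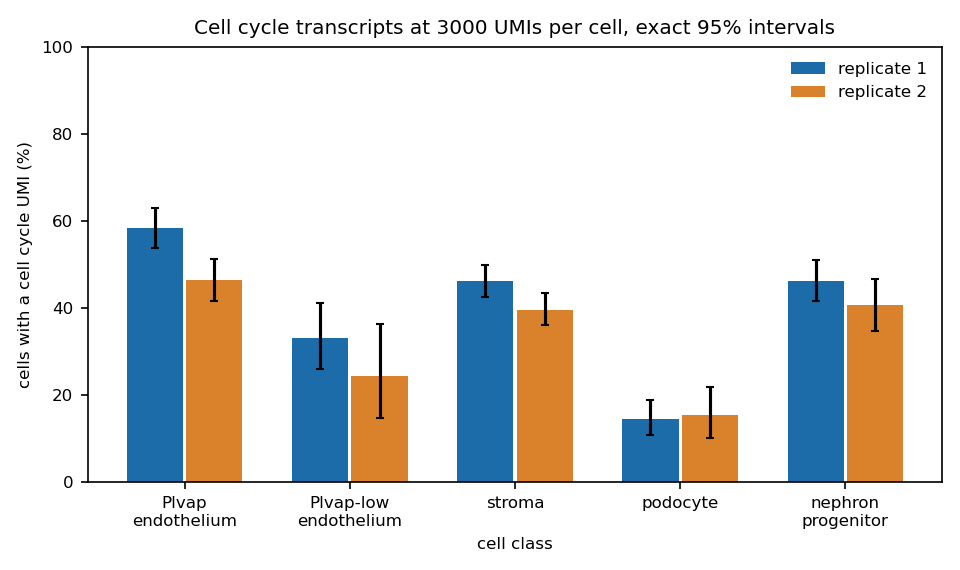
Share of cells with at least 1 UMI of 20 mitotic genes after thinning to 3000 UMIs, by cell class and library. Bars are shares and lines are exact 95% binomial intervals. Among the classes drawn, the Plvap endothelium is highest in both libraries, at 58.4% and 46.4%, and podocytes are lowest, at 14.4% and 15.2%. Macrophages and the other gated classes were not scored.

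An alternative chosen after the data were seen left out cycling endothelial cells. These held at least 5 UMIs of the 20 mitotic genes per 10000 UMIs. Without them 7 of 37 cell cycle genes were higher and 900 genes passed in all, 798 of them shared with the 1336. The 20 genes are among the 37, so a fall in the number of cell cycle calls was built into the filter. Venous genes then numbered 7 higher and arterial genes 16 lower. In that alternative no arterial gene passed as higher and no venous gene passed as lower.

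The cells fell into 6 sub-clusters in a graph built without the 37 listed cell cycle genes. Other genes of cycling cells, such as Prc1, Kif15 and histone genes, were not barred from it. The description carries no test, since the genes that made the clusters also describe them. A gene is called raised when its level is at least 2-fold that of the other cells with 5 CPM added and at least 10% of the cells hold it. Sub-cluster 2, 29.98% and 36.6% of the cells, held Nlgn1 at 846 and 847 CPM against 318 CPM in the other cells. It also had raised Nr2f2, Gpr182, Cd36 and haemoglobin genes. Hbb-bs stood at 1602 and 4954 CPM there, but sub-cluster 3 of replicate 1 held 1622 CPM, so the haemoglobin level did not set sub-cluster 2 apart in replicate 1.

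Sub-cluster 5, 8.50% and 11.2% of cells, was led by Tmtc1, at 277 and 470 CPM in the 2 libraries, and by the basement membrane chains Col4a3, Col4a4, Col4a5 and Col4a6. Col4a3 stood at 75.1 and 317 CPM there and at 11.7 CPM in the other cells. Sema3d, a guidance signal, stood at 261 and 491 CPM. Igf1 reached 1230 and 1167 CPM and Nr2f2 525 and 502 CPM, and Tll1 was raised too. The cluster had 2 raised venous genes of 10 (Nr2f2 and Tll1), 2 raised lymphatic genes of 7 (Mmrn1 and Reln) and 2 raised peritubular genes of 12 (Igf1 and Gas6). None of these was among its 10 leading genes, and it stayed unnamed.

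Sub-cluster 1, 19.5% and 12.6% of cells, was led by Esm1, a secreted product of sprouting tips and capillaries, at 133 and 143 CPM against 12.6 CPM in the other cells, and by Prnd at 84.2 and 129 CPM. Sox17, Gja4, Hey1, Dll4 and Unc5b of the arterial list and Apln, Cxcr4 and Adm of the tip list were raised. Nr2f2 was lower there than in the other 5, at 77.3 and 61.3 CPM, and Vash1, an inhibitor of sprouting that VEGF induces, stood at 89.8 and 83.0 CPM. With 5 of 18 arterial and 3 of 10 tip genes raised and none of them leading, it stayed unnamed.

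Sub-cluster 3, 11.9% and 17.5% of cells, was arterial-like in its summed levels, with 13 of 18 arterial genes raised. Cxcl12 and Depp1 were among its 10 leading genes. Cxcl12 stood at 131 and 364 CPM against 6.94 CPM in the other cells, and Klf4 at 402 and 422 CPM against 45.5 CPM. Of 13 glomerular genes, 9 were raised too, Ehd3 and Plat among them, but none was among the 10 leading genes. The absence of a Gja5 UMI thus did not keep all cells with arterial genes out. Of these 128 cells, however, only 30.5% held a Cxcl12 UMI and 38.3% a Depp1 UMI. At Leiden resolution 1 the sub-cluster led by Cxcl12 held 24 and 26 cells. The label of capillary and venous endothelium may therefore not cover a part of the 128, and how large a part was not tested.

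Sub-cluster 4, 29.3% and 21.7% of cells, was led by histone and mitotic genes, with Top2a at 895 and 858 CPM against 72.1 CPM and 34 of 37 cell cycle genes raised. Its median depth, 16482 and 20354 UMIs, was above that of the sub-clusters other than the smallest. Sub-cluster 6 was 4 and 2 cells with the nephron progenitor genes Cited1, Eya1 and Six2 and median depths of 35018.5 and 46441.5 UMIs. Those 6 cells carried 6 of 7 nephron progenitor markers raised.

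**Figure D5:**
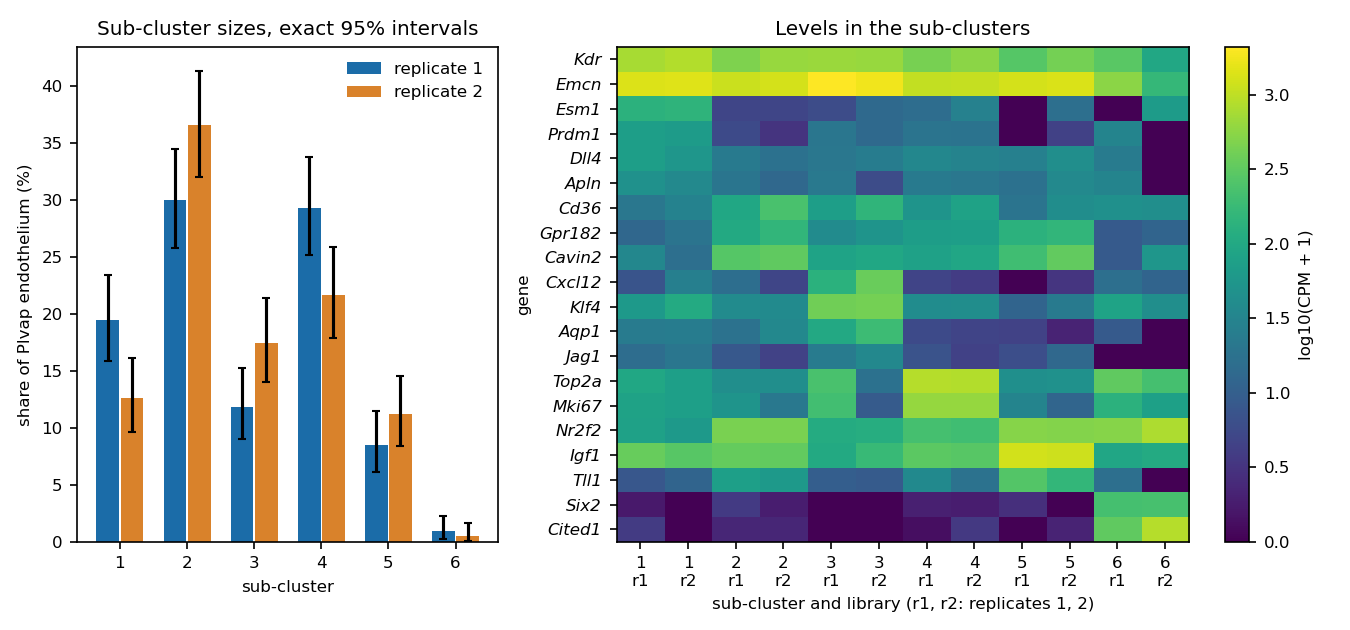
Left, share of the Plvap endothelium in each of 6 sub-clusters by library, with exact 95% binomial intervals. Right, levels of 20 genes as log10(CPM + 1) by sub-cluster and library. Esm1 is brightest in 1, Cxcl12 and Klf4 in 3, Top2a in 4, Igf1 in 5 and Cited1 in 6, and Nr2f2 is dimmest in 1.

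The libraries resembled each other in most genes. Of 4159 genes with at least 50 CPM in either library of the Plvap endothelium, 33 differed by at least 2-fold and 6 by at least 4-fold. Higher in replicate 1 were Magi2, Dlk1, Tmem14c and Hist2h2ac, and higher in replicate 2 were Mndal and Hbb-bt. Magi2, a scaffold protein of podocytes, had 344 and 19.2 CPM, and 3 cells of replicate 1 held 2500 of its 2675 UMIs. Mndal, an interferon-inducible gene with close relatives beside it, had 11.2 and 60.7 CPM, and reads may be shared among those relatives. Hbb-bt, a haemoglobin chain, had 88.3 and 622 CPM, and barcodes with 10 to 100 UMIs had 178 and 1974 CPM. With 2 libraries of 1 group these differences were not tested.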

How the data were processed

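Single-cell RNA was measured in 2 libraries of newborn mouse kidney. The authors deposited raw UMI counts per gene and barcode for all barcodes, 32285 genes. The file headers name Cell Ranger 4, whereas the submitters' processing notes name Cell Ranger 6.0.1 and the genome build mm10. Of the gene identifiers, 32158 were found in GENCODE M21 (GRCm38), from which coordinates were taken; upstream sequences came from RefSeq, GRCm38.p6. The other deposited tables list gene names and barcodes, and were used as labels for the counts.

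Cells, members and 9 comparison classes were gated by raw UMIs, and 44 and 43 cells that met more than 1 gate were left out of the sums. Counts were summed by library and class, since cells are not replicates. The 20 sums of 10 classes entered 1 fit in edgeR 4.0.16 (limma 3.58.1, R 4.3.3) with TMM scaling, filterByExpr, the library as a block and 9 residual degrees of freedom. The block is the library from which both classes came. Quasi-likelihood tests were two-sided, with Benjamini-Hochberg adjustment over 17776 genes and a threshold of 0.05. Per-library differences used a prior count of 2. Sub-clusters came from scanpy 1.11.5 (2000 variable genes, 20 principal components, 15 neighbours, Leiden resolution 0.5). Mitochondrial, ribosomal and sex-linked genes and the genes of the cell cycle and stress lists were left out, but not other genes of cycling cells. On simulated counts with 100 genes changed 2-fold and 100 changed 4-fold, the Plvap against Plvap-low test recovered 27 and 97, with 5 false calls. The simulation gave every gene the same spread beyond counting error and held no library effect. Only genes above a minimum level were changed, so these counts need not carry over to the measured data.

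The members, gates and gene lists were chosen with earlier results of these data known. Named genes are the 10 highest and 10 lowest differences past the threshold, of the same sign in both libraries and with at least 30 CPM on the higher side (for non-endothelial cells, the 10 highest), together with genes of the lists; genes named from sub-clusters and library differences were chosen after their values were seen. Intervals are exact (Clopper-Pearson) at 95% and cover counting error only. Doublets were left in, apart from an alternative. Genes with near-identical or overlapping neighbours may share counts.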

Additional observations from a re-analysis of the deposited data

How the results depend on the processing

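The number of genes between Plvap and Plvap-low endothelium, 1336, stayed within 1.5 times except with cells thinned to 3000 UMIs (661), which leaves fewer counts, and with Gja5 at 0 in both classes (848), for which the cause was not tested. Against the non-endothelial classes 7975 became 4368 with thinning. Without the replicate block, with the library not in the model, 1013 and 7135 genes passed. DESeq2's Wald test gave 658 higher and 983 lower, and moved the median of all genes from 0.06 to -0.05. Against the non-endothelial classes it gave 4058 higher and 4678 lower in place of 4637 and 3338. For 83 genes named from the comparison of endothelial classes, 15 alternatives gave 1243 values: 1157 kept direction and call, 85 kept direction and lost the call, and 1 reversed, Vwf at 0.62 with Gja5 at 0 in both classes. Free RNA subtraction and Gja5 at 0 each ended 22 calls, leaving out cycling cells 10, thinning 8 and the absence of the block 7. None of 166 single-library values reversed, but the genes named for the largest differences had to have the same sign in both libraries. With 1 library no residual spread is left, so no count of genes was computed. Of the 15, leaving out cycling cells and leaving out endothelial cells with epithelial markers were chosen after seeing the data. The share of cells that are Plvap endothelium was 8.08 to 10.2% with either library left out. The share with mitotic UMIs, 52.4%, was 46.4 to 58.4% by library, 40.9% at 1500 UMIs, 78.4% without thinning and 36.4% with at least 2 UMIs; the cause is the number of UMIs drawn or asked for. Leiden resolution 1 gave 13 sub-clusters in place of 6. The Plvap-low sums rest on 157 and 66 cells, which limits what that comparison can detect.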
